A study of Mus musculus with 24 samples.

Results

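The livers described here came from mice in which Bmal1 had been deleted with a Cre recombinase under the albumin promoter (Alb-Cre with floxed Bmal1, called LKO), and they were compared between 2 circadian times, CT14, early in the subjective night, and CT2, early in the subjective day. The comparison takes the 6 LKO libraries by their labels, 3 at CT14 and 3 at CT2, out of 24 libraries of polyadenylated liver RNA in all. The other genotypes also had 3 libraries at each time. A pair of them set the LKO values in context: Bmal1f/f mice without Cre (F), which carry the same floxed alleles, and global Bmal1 knockouts (KO), bred on a C57BL/6J background. The fourth genotype, WT, was Bmal1+/+ from the same breeding as KO; its libraries entered the model of all 8 groups, and its values are not described. The albumin promoter drives Cre chiefly in hepatocytes, so other cells of the LKO liver, and all other organs of the LKO mice, keep undeleted alleles. The labels give neither age nor sex nor feeding regime. Whether replicates were different animals is not given either, so the p-values may measure technical spread alone.

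BMAL1 and its partner CLOCK bind E-box sequences and switch on the Period and Cryptochrome genes, whose proteins then repress BMAL1 and CLOCK, and a second loop of nuclear receptors acts on RORE sequences in Bmal1, Npas2 and Nfil3. A liver whose hepatocytes lack this oscillator still receives daily signals from the rest of the animal, known examples being meals and insulin, glucocorticoids and body temperature. Liver genes known to follow such signals include heat shock genes, the glucocorticoid targets Fkbp5 and Tsc22d3, and, among the core clock genes, Per2.

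Bmal1 itself (ENSMUSG00000055116) was read first. Levels are given throughout as CPM, counts scaled to a common library size and composition. Bmal1 stood at 5.96, 5.49 and 5.46 CPM in LKO livers at CT14, against 7.63, 7.91 and 6.57 CPM in LKO livers at CT2. The F livers had 3.26, 14.97 and 10.4 CPM at CT14 and 29.1, 29.8 and 26.6 CPM at CT2. Between the times the LKO log2 fold change was -0.39 ± 0.35 (SE) for CT14 over CT2 (adjusted p = 0.773). At CT2 every LKO library lay below every F library (LKO over F -1.95 ± 0.36, adjusted p = 0.0112). At CT14 the LKO values lay within the F range (LKO over F -0.76 ± 0.35, adjusted p = 0.436). The KO livers had 7.10, 6.66 and 7.53 CPM at CT14 and 7.47, 7.15 and 7.57 CPM at CT2. Reads from a deleted allele and from cells without Cre activity could not be told apart in the gene total.

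Depth was similar in the 6 LKO libraries, with total estimated counts of 102832681 to 120125300. All 9 hepatocyte markers were measured in all 6, and their summed level was 70709 to 80459 CPM at CT14, against 71200 to 99964 CPM at CT2. LKO CT2 replicate 3 stood apart from the other 5. Its mitochondrial transcripts took 1.79% of counts, against 2.63 to 3.57% in the others, and its Y-linked gene Ddx3y stood at 8.15 CPM, against 28.5 to 36.6 CPM. The Y-linked Kdm5d, Eif2s3y and Uty were lowest there too, and Xist was at most 0.0756 CPM in all 6. Results are therefore also given without LKO CT2 replicate 3 where the call or the count moved. Among the F libraries, CT2 replicate 3 was low in the same way, with 1.35% mitochondrial counts and Ddx3y at 3.86 CPM. Its pancreatic acinar markers summed to 2580 CPM, and the F contrast called 341 genes without it, against 545 with it. No marker of Kupffer cells, endothelium, stellate cells, cholangiocytes, lymphocytes, neutrophils, erythroid cells, pancreatic acinar cells or spermatids passed the test between the times (edgeR); at an unadjusted p under 0.05 there were 2 stellate, 1 lymphocyte and 3 neutrophil markers lower at CT14, and DESeq2 called 2 stellate and 2 neutrophil markers. The summed level of the 4 neutrophil markers was 0.899 to 3.21 CPM in LKO livers at CT14, against 2.85 to 35.1 CPM at CT2, and that of the 7 lymphocyte markers 2.93 to 3.65 CPM, against 4.73 to 6.32 CPM. Ly6g, a defining neutrophil marker, was at 0 in 5 of the 6. Of 10 Kupffer markers 0 had a positive log2 fold change (median -0.43). All LKO CT14 libraries lay below all CT2 libraries for 4 of 8 endothelial and 3 of 9 stellate markers (10.3% of all genes). The summed endothelial level was 326 to 348 CPM at CT14, against 359 to 386 CPM at CT2, while the Kupffer and stellate sums overlapped. Of 5 erythroid and 14 spermatid markers, 4 and 13 had a positive value. In bulk tissue, fewer cells of a type and less RNA per cell cannot be told apart.

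At CT14, 174 genes differed from CT2 in LKO liver, which is 0.848% of the 20514 genes tested (edgeR quasi-likelihood test with Benjamini-Hochberg adjustment, adjusted p under 0.05). Of these, 91 were higher at CT14 (0.444%) and 83 lower (0.405%), and 104 differed at least 2-fold, 53 upward and 51 downward. The CT14 and CT2 libraries did not overlap for any of the 174, while they also did not overlap for 20.7% of all genes tested. The same contrast called 545 genes in F liver (2.66%) and 0 in KO liver. In KO, 753 genes had an unadjusted p under 0.05 (3.67%), and DESeq2 called 37 (0.181% of the 20461 genes to which it gave an adjusted p). In LKO 12% of genes had an unadjusted p under 0.05, and DESeq2 called 662 (4.44% of the 14901 genes to which it gave an adjusted p). Counts of list members by these rules are to be read against those shares, which cover both directions. The LKO count rested on all 6 libraries: it was 39, 10 and 10 without CT14 replicate 1, 2 and 3, and 38, 17 and 59 without CT2 replicate 1, 2 and 3. All 174 genes kept their direction in each of these 6 fits, which follows from their lack of overlap and is no separate support. Of the 174, 73 were called in at least 1 of these fits and 8 in all 6. On log2(TPM + 1) with limma-trend the split was 106 higher to 47 lower, against the 91 to 83 of the edgeR model.

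A set of 8 genes was called in each of the 6 fits that left out 1 LKO library: St3gal5, Ppp2r5e, Usp2 and Fkbp5 were higher at CT14, and Ube2h, Acss2, Acacb and Ngfr lower. St3gal5, which makes the ganglioside GM3, had the smallest adjusted p of all. It had 77.5, 102 and 93.8 CPM in LKO livers at CT14, against 22.7, 31.0 and 27.0 CPM at CT2, a log2 fold change of 1.76 ± 0.18 (adjusted p = 6.2e-05). Every CT14 library stood far above every CT2 library. Ppp2r5e, a regulatory subunit of protein phosphatase 2A, had 51.7, 56.0 and 58.1 CPM at CT14, against 27.5, 24.9 and 22.5 CPM at CT2. Fkbp5, a co-chaperone that binds the glucocorticoid receptor complex and is induced by glucocorticoids, had 44.9, 64.6 and 60.3 CPM at CT14, against 13.5, 15.9 and 16.7 CPM at CT2. Both rose, by 1.15 ± 0.16 and 1.88 ± 0.28 on the log2 scale (adjusted p = 0.00311 each). Ube2h, a ubiquitin-conjugating enzyme, showed little spread within either time, with 38.2, 39.9 and 37.5 CPM at CT14 against 74.0, 73.9 and 66.4 CPM at CT2 (log2 fold change -0.89 ± 0.12, adjusted p = 0.00311). Ngfr, the p75 neurotrophin receptor, had 2.35, 1.52 and 1.90 CPM at CT14, against 6.78, 9.12 and 12.6 CPM at CT2 (-2.30 ± 0.33, adjusted p = 0.00311).

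A pair of these genes act at adjoining steps of acetyl-CoA use. Acss2 makes acetyl-CoA from acetate in the cytosol and nucleus, and Acacb is the acetyl-CoA carboxylase of the mitochondrial surface, whose product malonyl-CoA restrains fatty acid import. Acss2 had 191, 165 and 205 CPM in LKO livers at CT14, against 509, 487 and 753 CPM at CT2 (-1.64 ± 0.24, adjusted p = 0.00311). Acacb had 27.1, 29.7 and 33.5 CPM at CT14, against 83.9, 119 and 165 CPM at CT2 (-2.03 ± 0.30, adjusted p = 0.00311). In both, the highest CT14 library lay well below the lowest CT2 library, and the highest CT2 value came from the library that stood apart, without which both remained called (adjusted p = 0.0146 each).

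**Figure D1:**
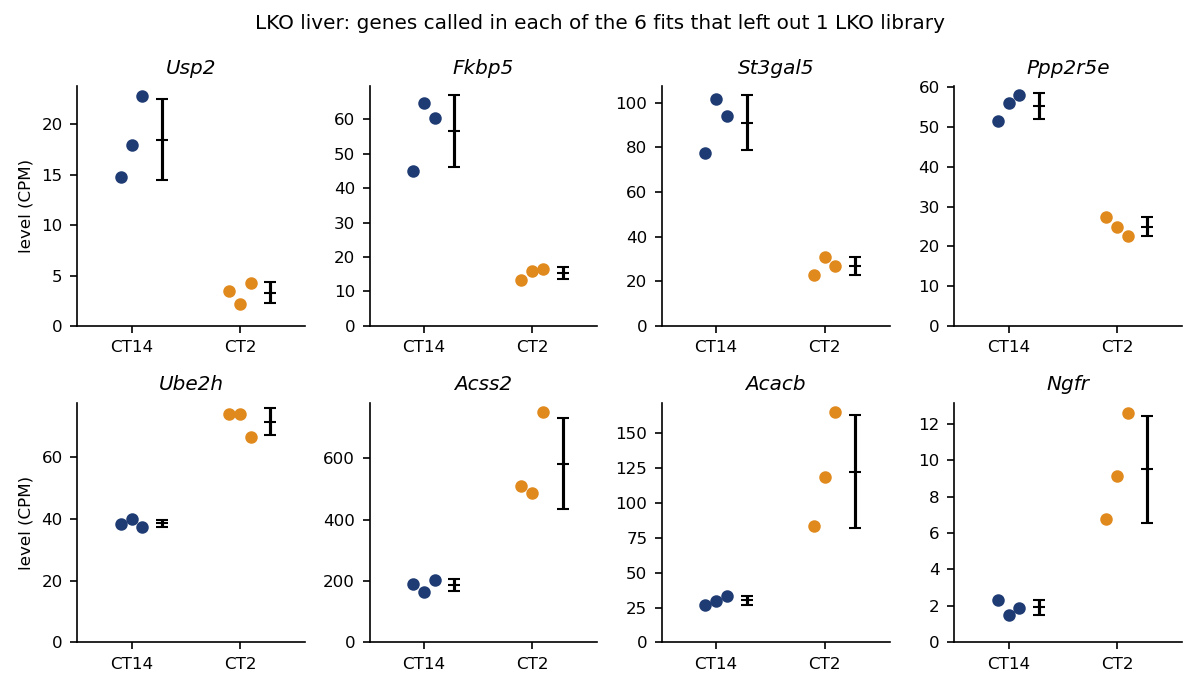
Level in CPM (vertical axes, from 0) in the 3 LKO libraries at CT14 (left, dark) and at CT2 (right, orange) for the 8 genes called in each fit that left out 1 LKO library. Points are libraries, and the bars beside them give the mean and SD. In every panel the CT14 and CT2 points are separate, as they were for all 174 called genes.

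The 10 largest upward changes were taken among called genes with a symbol, separate groups and at least 1 CPM on average at 1 of the times. Noct encodes nocturnin, a rhythmic phosphatase of the deadenylase family, and had 9.45, 12.5 and 6.53 CPM at CT14, against 1.34, 2.33 and 0.940 CPM at CT2 (2.63 ± 0.55, adjusted p = 0.0371). Plin4, a lipid droplet coat protein, had 3.82, 3.10 and 6.42 CPM at CT14, against 0.884, 0.808 and 0.607 CPM at CT2 (2.53 ± 0.55, adjusted p = 0.0373). G0s2, the inhibitor of adipose triglyceride lipase, had 84.6, 88.7 and 124 CPM at CT14, against 14.5, 22.1 and 28.9 CPM at CT2 (2.18 ± 0.50, adjusted p = 0.048). That their times did not overlap was a condition of this choice. The others were Usp2, Cdkn1a and Per2, described with their groups, Tedc2, a centriole protein gene (log2 fold change 2.16), the endothelial lipase Lipg (2.01), the translation repressor Eif4ebp3 (1.89) and Fkbp5. The calls of Noct, Plin4, G0s2, Tedc2 and Lipg were each lost without any one of the 6 LKO libraries, with adjusted p up to 0.215 (G0s2), and that of Eif4ebp3 in 5 of the 6 such fits (all but the one without CT14 replicate 1), with adjusted p up to 0.185.

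The 10 largest downward changes under the same limits included 3 predicted genes, of which Gm49024 had the largest change (-3.12). Chac1, which degrades glutathione and is induced by ATF4, had 0.525, 0.348 and 0.816 CPM at CT14, against 3.91, 3.89 and 4.37 CPM at CT2 (-2.84 ± 0.47, adjusted p = 0.0114). Its call was lost only without CT14 replicate 2 (adjusted p = 0.123). Cdc42ep5, an effector of the small GTPase CDC42, had 1.86, 1.93 and 1.81 CPM at CT14, against 11.0, 24.2 and 7.38 CPM at CT2 (-2.93 ± 0.54, adjusted p = 0.0251). Nr4a1, an immediate early gene that encodes an orphan nuclear receptor, had 1.75, 1.45 and 1.20 CPM at CT14, against 5.50, 14.4 and 3.63 CPM at CT2 (-2.42 ± 0.55, adjusted p = 0.0443). For both, the CT14 values lay close together and the CT2 values were spread, with replicate 2 the highest. Pde4d, a cyclic AMP phosphodiesterase, had 0.946, 0.761 and 0.521 CPM at CT14, against 2.71, 4.05 and 2.52 CPM at CT2 (-2.06 ± 0.38, adjusted p = 0.025). Also among the 10 were Ngfr, Ripor2, Exoc3l4 (-2.09) and the predicted genes Gm49024, Gm32540 and Gm34667. The smallest change of the 10 was that of Pde4d. Apart from Ngfr and Chac1, each of these calls was lost without CT14 replicate 2, CT14 replicate 3 or CT2 replicate 2, and in up to 2 further fits, with adjusted p up to 0.233 (Nr4a1).

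The clock genes answer whether the oscillator's own targets differed between the times once hepatocyte Bmal1 was gone. Of 15 clock and output genes under E-box control, 3 were higher at CT14 in LKO liver, Per2, Usp2 and Hlf, against 13 of 15 in F liver, where 1.33% of all genes were called higher and 1.33% lower. The median log2 fold change of the 15 was 0.85 in LKO, 3.07 in F and -0.01 in KO, beside -0.01, 0.03 and 0 over all genes tested. Of the 15, 14 had a positive value in LKO, as had 10000 of all 20514 genes tested. For 10 of the 15 the CT14 libraries all lay above the CT2 libraries, as they did for 10.4% of all genes.

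Per2, a repressor of the oscillator, had 33.2, 43.0 and 41.9 CPM in LKO livers at CT14, against 14.998, 7.79 and 11.0 CPM at CT2. The log2 fold change was 1.80 ± 0.35 (adjusted p = 0.0299) in LKO and 3.39 (adjusted p = 1.84e-05) in F, and -0.27 ± 0.34 in KO, where the libraries overlapped. Usp2, a deubiquitinase gene with strongly rhythmic expression, had 14.8, 17.9 and 22.8 CPM at CT14, against 3.51, 2.18 and 4.23 CPM at CT2. It rose by 2.48 ± 0.35 in LKO (adjusted p = 0.00311), and the LKO value exceeded that of KO by 2.75 ± 0.48 (adjusted p = 0.0415, lost in 10 of the 12 fits that left out an LKO or KO library, with adjusted p up to 0.161). Hlf, a PAR bZIP transcription factor, had 35.7, 34.1 and 38.0 CPM at CT14, against 16.9, 17.1 and 24.4 CPM at CT2 (0.88 ± 0.19, adjusted p = 0.0373). All 3 genes were separated between the times, as were all 174 genes called in LKO. The calls of Per2 and Hlf were lost in 4 and 5 of the 6 fits without a library. Per2 was called without CT14 replicate 1 or CT2 replicate 1, with adjusted p up to 0.135 otherwise, and Hlf without CT2 replicate 3, with adjusted p up to 0.193 otherwise.

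Other clock genes changed in F and did not pass the test in LKO, and for 5 clock genes described here the difference between the genotypes was itself called. The time effect in LKO minus that in F was called for 23 genes (0.112%), 11 with a higher (0.0536%) and 12 with a lower value in LKO (0.0585%), and 12 of them kept the call in each of the 12 fits that left out an LKO or F library. The total was 12 to 57 across those fits: 15, 12 and 14 without LKO CT14 replicate 1, 2 and 3, 14, 13 and 57 without LKO CT2 replicate 1, 2 and 3, and 14 and 55 without F CT14 replicate 3 and F CT2 replicate 3. Tef, another PAR bZIP factor, had 92.6, 95.1 and 95.6 CPM in LKO at CT14 and 68.0, 71.1 and 85.2 CPM at CT2, while F livers had 178, 121 and 137 CPM at CT14 and 13.3, 16.2 and 22.4 CPM at CT2. Its LKO level lay between the 2 F levels at both times, and the effects differed by -2.73 ± 0.25 (adjusted p = 6.08e-06). Npas2, a CLOCK paralog under RORE control, had 21.5, 20.6 and 15.5 CPM in LKO at CT14 and 15.3, 18.8 and 29.8 CPM at CT2, while F livers had 0.184, 0.0573 and 0.119 CPM at CT14 and 11.1, 10.7 and 7.27 CPM at CT2. The LKO values overlapped between the times and were above the highest F value at both, and the effects differed by 6.16 ± 0.45 (adjusted p = 1.88e-07). Per3 and the cell cycle kinase gene Wee1 behaved like Tef, with differences of -3.77 ± 0.46 and -3.27 ± 0.40 (adjusted p = 0.000406 each). These 4 held in all 12 fits.

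Dbp, the third PAR bZIP factor, had 7.38, 5.72 and 6.07 CPM in LKO at CT14, against 3.39, 2.75 and 3.06 CPM at CT2. The groups did not overlap, but the log2 fold change of 1.06 ± 0.50 missed the threshold (adjusted p = 0.411), and it differed from that in F by -4.20 ± 0.75 (adjusted p = 0.0219). That difference was lost in 7 of the 12 fits, those without LKO CT14 replicate 1, 2 or 3, LKO CT2 replicate 1 or 2 or F CT2 replicate 1 or 2, with adjusted p up to 0.0999. It was also lost with the replicate number as a block, with LKO and F fitted alone and on log2(TPM + 1), with adjusted p up to 0.156.

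Of the remaining clock genes described here, Nfil3 passed the test in LKO liver and the others did not. Per1 had 21.9, 21.5 and 17.1 CPM at CT14, against 3.28, 10.4 and 4.32 CPM at CT2, which did not overlap (1.74 ± 0.62, adjusted p = 0.219). Ciart, a repressor of CLOCK and BMAL1, had 0.708, 0.816 and 0.650 CPM at CT14, against 0.156, 0.0238 and 0 CPM at CT2 (3.53 ± 1.05, adjusted p = 0.13). Bhlhe41 and Nr1d2 were likewise separated, with 3.18 ± 1.08 (adjusted p = 0.19) and 0.85 ± 0.30 (adjusted p = 0.216). Nr1d1, Cry1, Cry2 and Bhlhe40 had log2 fold changes between 0.03 and 0.27, and Clock, at 38.2, 44.7 and 46.6 CPM at CT14 and 40.7, 37.1 and 13.1 CPM at CT2, had its lowest value in the library that stood apart. Of the 5 genes under RORE control, 1 fell: Nfil3, a repressor of PAR bZIP targets, had 20.1, 23.1 and 24.9 CPM at CT14, against 39.6, 35.0 and 41.5 CPM at CT2 (-0.77 ± 0.18, adjusted p = 0.0478). Its groups were separate, as for every gene called in LKO. Its call was lost without any one of the 6 libraries (adjusted p 0.102 to 0.199).

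**Figure D2:**
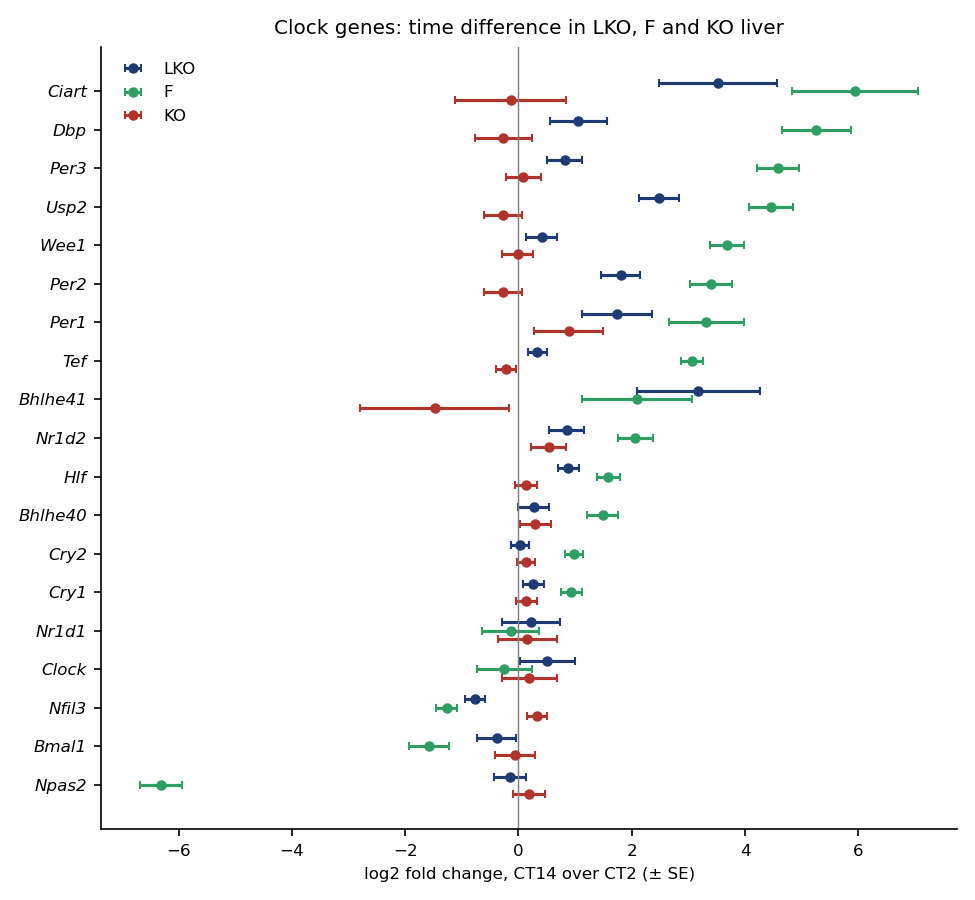
Log2 fold change of CT14 over CT2 (horizontal axis, points with SE bars) for 19 clock genes in LKO (dark blue), F (green) and KO liver (red). Most LKO values of the upper genes lie between those of F and KO, and Npas2 reads -0.15 in LKO, -6.31 in F and 0.18 in KO.

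Glucocorticoid-responsive genes gave 3 called members of 20, all higher at CT14 (0.444% of all genes were called higher), against 4 higher and 1 lower in F (1.33% of all genes each way). Besides Fkbp5 these were Tsc22d3, the leucine zipper protein GILZ, and Cdkn1a, the cell cycle inhibitor p21. Tsc22d3 had 136, 154 and 113 CPM at CT14, against 49.2, 73.6 and 50.02 CPM at CT2 (1.22 ± 0.27, adjusted p = 0.0383, lost without any one library with adjusted p up to 0.199). Cdkn1a had 58.5, 76.0 and 64.4 CPM at CT14, against 10.8, 7.91 and 25.4 CPM at CT2, and rose by 2.17 ± 0.37 (adjusted p = 0.0139). That call was lost without CT14 replicate 2 or 3 or CT2 replicate 1 or 2, with adjusted p up to 0.0904. At an unadjusted p under 0.05, 9 of the 20 were higher and 1 lower in LKO, and DESeq2 called 3 higher and 1 lower. Of the 20, 13 had a positive value, as had 10000 of all 20514 genes tested. The median log2 fold change of the 20 was 0.51 in LKO, 0.03 in F and 0.61 in KO. Cdkn1a was also the 1 edgeR call among 25 cell cycle genes (0.444% of all genes were called higher). In that list 4 had an unadjusted p under 0.05, all higher, and DESeq2 called 1.

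Cdkn1a moved in opposite directions in the 2 floxed genotypes. In F livers it had 1.62, 3.42 and 2.71 CPM at CT14, against 5.93, 8.30 and 6.41 CPM at CT2 (-1.41, adjusted p = 0.0405). The LKO effect exceeded the F effect by 3.59 ± 0.52 (adjusted p = 0.00284, up to 0.0144 with 1 library left out), and the call was lost when LKO and F were fitted alone (adjusted p = 0.0576). The lowest LKO library at CT14, with 58.5 CPM, stood above every F library. Acacb also differed, since its F livers had 123, 189 and 200 CPM at CT14 and 110, 130 and 80.3 CPM at CT2, a difference of effects of -2.71 ± 0.41 (adjusted p = 0.00423, up to 0.0228). Of the 174 LKO calls, 5 were called against F: besides Cdkn1a and Acacb these were Acss2 (-1.71), the nucleotide exchange factor gene Ngef (-1.58) and Lrrc59, an endoplasmic reticulum membrane protein gene (1.43), named after their values were seen. These last 3 held in 2, 7 and 5 of the 12 fits, with adjusted p up to 0.157, 0.0996 and 0.104 in the fits that lost them.

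**Figure D3:**
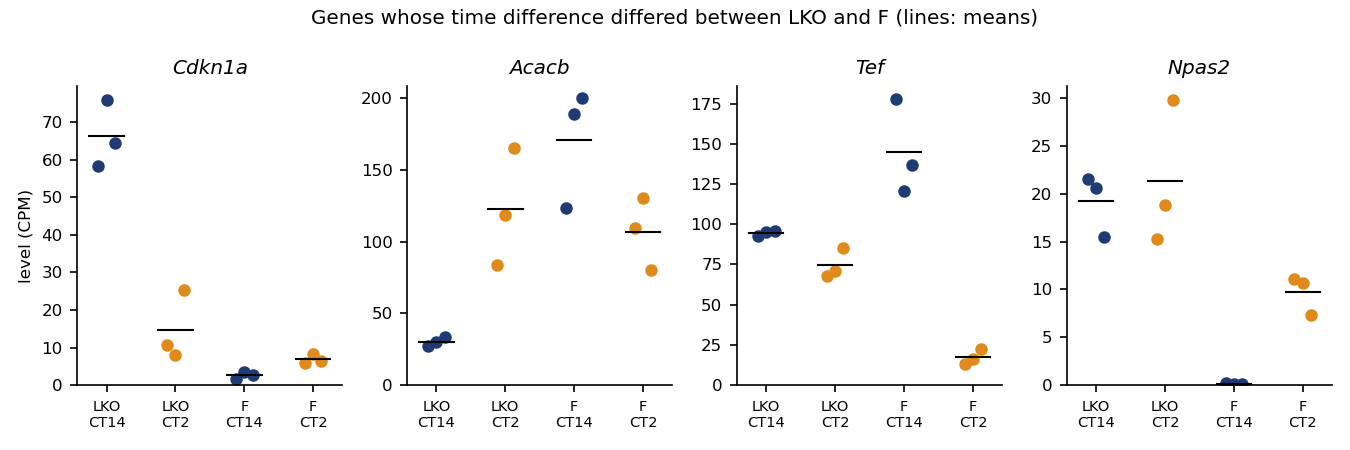
Level in CPM (vertical axes, from 0) in each library of LKO at CT14 and CT2 and of F at CT14 and CT2, left to right, for 4 genes whose time effect differed between LKO and F. Points are libraries and lines are group means; Cdkn1a stands at 58.5 to 76.0 CPM in LKO at CT14 and at 1.62 to 3.42 CPM in F at CT14.

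Heat shock and chaperone genes leaned upward with 1 edgeR call. Of 22, 1 was called higher in LKO, Hsph1 (0.444% of all genes were), against 5 in F (1.33% of all genes). At an unadjusted p under 0.05 there were 11 in LKO, and DESeq2 called 6, all higher. Of the 22, 20 had a positive log2 fold change, as had 10000 of all 20514 genes tested. For 11 all CT14 libraries lay above all CT2 libraries (10.4% of all genes did). The list's median was 0.54 in LKO, 0.66 in F and -0.08 in KO. Hsph1, the large chaperone HSP110, had 75.8, 97.4 and 97.6 CPM at CT14, against 33.6, 24.8 and 23.2 CPM at CT2 (1.73 ± 0.38, adjusted p = 0.0373). The 2 groups were far apart, but the call was lost without any one library (adjusted p 0.0654 to 0.187). Hspa1b had 61.5, 88.5 and 118 CPM at CT14, against 14.8, 11.7 and 18.2 CPM at CT2 (2.59 ± 0.70, adjusted p = 0.0971), and Hspa1a 16.4, 31.2 and 35.8 CPM, against 5.61, 4.30 and 5.67 CPM (2.42 ± 0.73, adjusted p = 0.142). These stress-inducible HSP70 genes are near-identical copies, so the split of reads between them is uncertain. The cold-inducible RNA-binding protein gene Cirbp had 10.6, 6.96 and 8.93 CPM at CT14, against 13.5, 22.1 and 18.2 CPM at CT2, which did not overlap (-1.02 ± 0.36, adjusted p = 0.213). The 6 cold-inducible and temperature-responsive RNA binders were split, with 3 positive values. Of the 6, 2 were separated upward (10.4% of all genes) and 3 downward (10.3%), and edgeR called 1, lower (0.405% of all genes were). At an unadjusted p under 0.05, 2 were higher and 3 lower, and DESeq2 called 2, both lower.

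Of 24 ribosome biogenesis genes, 5 were higher at CT14 and 0 lower in LKO, where 0.444% of all genes were called higher, against 2 higher in F, where 1.33% were. For 15 of the 24 every LKO CT14 library lay above every CT2 library, as for 10.4% of all genes. The median log2 fold change was 0.63 in LKO, 0.49 in F and -0.19 in KO. The nucleolar phosphoprotein gene Nolc1 had 41.0, 52.9 and 54.7 CPM at CT14, against 19.8, 10.03 and 22.4 CPM at CT2 (1.51 ± 0.35, adjusted p = 0.0477). Rrp12, which takes part in ribosomal subunit export in yeast, had 16.7, 17.4 and 25.4 CPM at CT14, against 9.11, 5.03 and 10.3 CPM at CT2 (1.28 ± 0.27, adjusted p = 0.0371). Wdr12, needed for processing of the large subunit RNA, rose by 0.91 ± 0.18 (adjusted p = 0.0324). Polr1a, the largest subunit of RNA polymerase I, had 27.9, 28.5 and 36.1 CPM at CT14, against 14.4, 14.3 and 21.6 CPM at CT2 (0.88 ± 0.20, adjusted p = 0.0394). Utp20, of the small subunit processome, rose by 0.69 ± 0.16 (adjusted p = 0.048). DESeq2 called 9 of the 24, all higher. Without CT2 replicate 3 the edgeR count was 2, and each of the 5 calls was lost in 4 to 6 of the 6 fits without a library, with adjusted p up to 0.302 (Utp20). Of 30 cytosolic ribosomal protein genes, by contrast, 0 were called by edgeR, 0 had an unadjusted p under 0.05 and 0 were called by DESeq2, with a median of 0.04.

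Endoplasmic reticulum chaperone genes had no call among 20 with edgeR, 9 with an unadjusted p under 0.05, all higher at CT14, and 3 calls with DESeq2. The median was 0.50 in LKO and -0.31 in F, and 11 of the 20 were separated upward in LKO (10.4% of all genes were). Herpud1, of the degradation machinery of the endoplasmic reticulum, had 315, 375 and 473 CPM at CT14, against 85.1, 113 and 147 CPM at CT2 (1.75 ± 0.48, adjusted p = 0.0967). Dnajb9 had 68.4, 100 and 99.7 CPM at CT14, against 26.2, 18.02 and 14.3 CPM at CT2 (2.199 ± 0.64, adjusted p = 0.121). Both were well separated and did not pass the test.

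**Figure D4:**
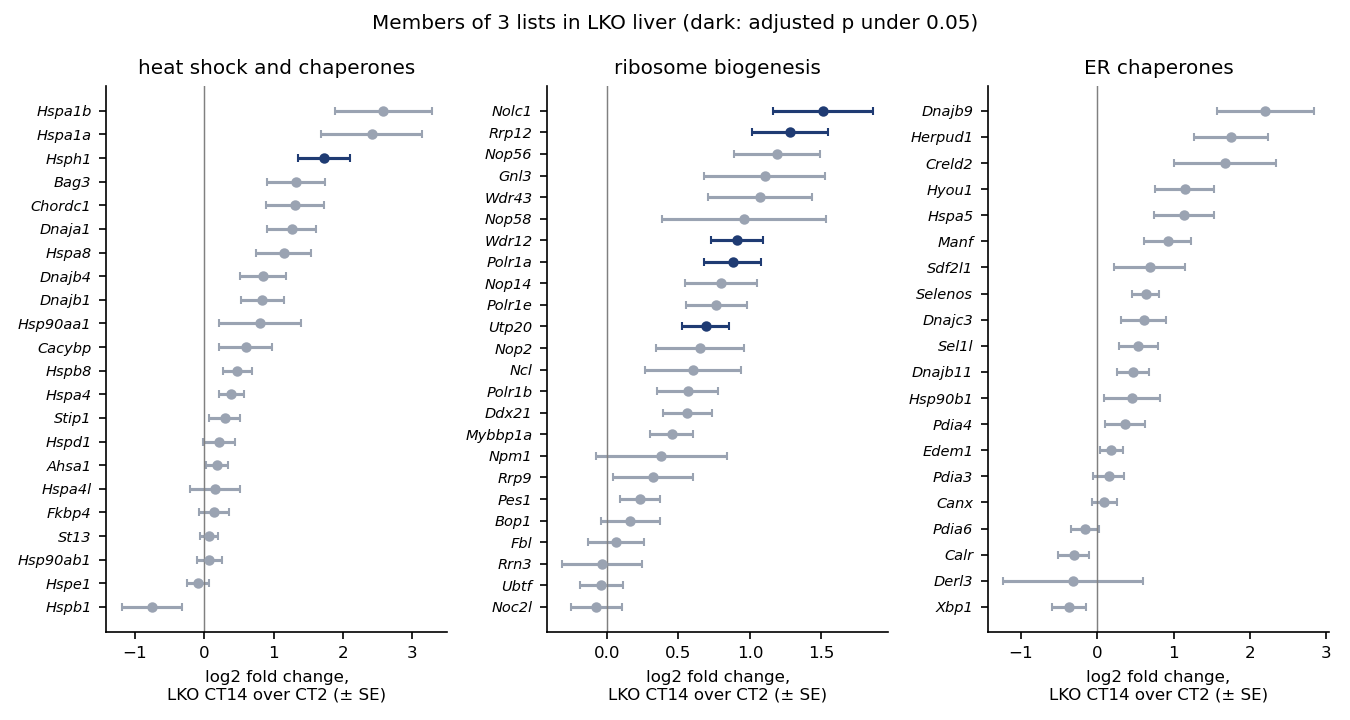
Log2 fold change of LKO CT14 over CT2 (horizontal axes, points with SE bars) for each member of the heat shock, ribosome biogenesis and endoplasmic reticulum (ER) chaperone lists. Dark points passed the test: 1 of 22, 5 of 24 and 0 of 20; most grey points also lie right of 0.

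Among 21 genes of gluconeogenesis, glycogen and glycolysis, 3 were higher at CT14 in LKO (0.444% of all genes), against 8 in F (1.33% of all genes), and 2 of the 3 are described here. Ppp1r3b, which targets protein phosphatase 1 to glycogen, had 426, 395 and 394 CPM at CT14, against 153, 139 and 146 CPM at CT2 (1.47 ± 0.32, adjusted p = 0.0373). Slc37a4, the glucose-6-phosphate transporter, had 128, 148 and 139 CPM at CT14, against 57.9, 77.9 and 89.5 CPM at CT2 (0.88 ± 0.19, adjusted p = 0.0373). Both were separated. Ppp1r3b was lost without any one library (adjusted p up to 0.174), and Slc37a4 without any one but CT2 replicate 3 (up to 0.185). The liver glycogen synthase Gys2 had 69.4, 80.6 and 82.8 CPM at CT14 and 72.8, 83.5 and 75.6 CPM at CT2 in LKO, a log2 fold change of 0.01 ± 0.17, while it was 1.59 in F, and the difference was called (-1.58, adjusted p = 0.00423, up to 0.0216 with 1 library left out); this gene was singled out after its values were seen. Irs2, the insulin receptor substrate that rises in fasting liver, had 18.7, 18.6 and 19.8 CPM at CT14, against 45.8, 75.7 and 42.2 CPM at CT2 (-1.52 ± 0.37, adjusted p = 0.0554); edgeR called 0 of the 14 insulin and feeding genes it was listed with, 4 had an unadjusted p under 0.05 and DESeq2 called 2, both lower.

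Lipid genes were mixed. Of 25 tested genes of lipogenesis and lipid storage, Plin4 and Plin5 were higher (0.444% of all genes were) and Acacb lower (0.405%) at CT14, and 1 list member, Cidea, did not pass the filter on low counts. Plin5, a droplet protein of oxidative tissues, had 71.3, 68.0 and 91.7 CPM at CT14, against 27.6, 25.9 and 49.5 CPM at CT2 (1.17 ± 0.27, adjusted p = 0.0474, lost without any one library but CT2 replicate 3 with adjusted p up to 0.234). Of 27 fatty acid oxidation and ketogenesis genes edgeR called 0, 6 had an unadjusted p under 0.05 and DESeq2 called 0. Their median was 0.43, and 23 had a positive value, as had 10000 of all 20514 genes tested. The rate-limiting Cpt1a had 307, 274 and 395 CPM at CT14, against 181, 232 and 210 CPM at CT2 (0.65 ± 0.23, adjusted p = 0.217). Of 25 cholesterol synthesis genes edgeR called 0, 6 had an unadjusted p under 0.05, all lower, and DESeq2 called 2; the median was -0.24. Of 23 bile acid genes edgeR called 0, with 4 at an unadjusted p under 0.05 and 3 DESeq2 calls.

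Of 25 amino acid catabolism genes, edgeR called 1 higher, as 0.444% of all genes were. In that list 3 had an unadjusted p under 0.05 and DESeq2 called 2, all higher. The edgeR call was Gpt2, the mitochondrial alanine aminotransferase, with 365, 382 and 393 CPM at CT14, against 138, 152 and 265 CPM at CT2. Its log2 fold change was 1.04 ± 0.24 (adjusted p = 0.0453), and 1.04 in F. The call was lost without any one library but CT2 replicate 3 (adjusted p up to 0.203). Chac1 was the only edgeR call among 16 ATF4 targets, and Nr4a1 the only one among 20 immediate early genes. Both were lower, as 0.405% of all genes were. At an unadjusted p under 0.05, 1 ATF4 target was higher and 2 were lower, and DESeq2 called 1 each way. Of the immediate early genes, 1 was higher and 4 were lower at an unadjusted p under 0.05, and DESeq2 called 3, all lower. Of 13 SRF and actin genes edgeR called 0, 4 had an unadjusted p under 0.05, all lower, and DESeq2 called 1. Of 12 growth hormone axis genes edgeR called 0, 5 had an unadjusted p under 0.05, all lower, and DESeq2 called 4. In that list Cish, a feedback inhibitor of the pathway, had 3.14, 2.75 and 2.53 CPM at CT14, against 30.7, 5.40 and 51.8 CPM at CT2 (-3.38 ± 0.98, adjusted p = 0.126), so the CT2 libraries spread far more than the CT14 ones. Igfbp1, which binds insulin-like growth factors, was spread in the same way, with 11.8, 24.98 and 17.4 CPM at CT14, against 186, 554 and 91.8 CPM at CT2 (-3.94 ± 1.11, adjusted p = 0.116).

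The lists of xenobiotic metabolism (31 genes), NRF2 and redox (20), NAD metabolism (15), iron handling (14), sex-biased genes (20), the acute phase (21), interferon-stimulated genes (22) and mitochondrially encoded genes (13) had 0 calls with edgeR in LKO. At an unadjusted p under 0.05 they had 1, 4, 4, 5, 1, 3, 1 and 0 members in that order, and DESeq2 called 0 in each but iron handling, where it called 1. Acute phase genes had a median of -0.38, with 7 of 21 separated downward (10.3% of all genes were), among them Lbp, the lipopolysaccharide binding protein, at 99.5, 93.5 and 108 CPM at CT14, against 157, 246 and 158 CPM at CT2 (-0.90 ± 0.34, adjusted p = 0.252).

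The 174 genes were then read in the other genotypes. In F liver 57 of them were called in the same direction, 31 upward and 26 downward, where 1.33% of all genes were called each way. These are 32.8% of the LKO calls and 10.5% of the F calls. Another 2 were called in the opposite direction, Cdkn1a and Ngef. The sign was the same in F for 164 of the 174 and in KO for 69. The share of all genes tested with the same sign was not computed. The median log2 fold change of the 91 genes higher at CT14 in LKO was 1.13 in LKO, 0.71 in F and -0.07 in KO, and that of the 83 lower genes -1.14 in LKO, -0.69 in F and 0.05 in KO. Read the other way, genes called higher in F had a median of 0.45 in LKO and 1.13 in F, and genes called lower in F -0.44 in LKO and -1.02 in F. Each set has its larger median in the genotype that chose it. The 3 genotypes share no libraries in these contrasts.

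**Figure D5:**
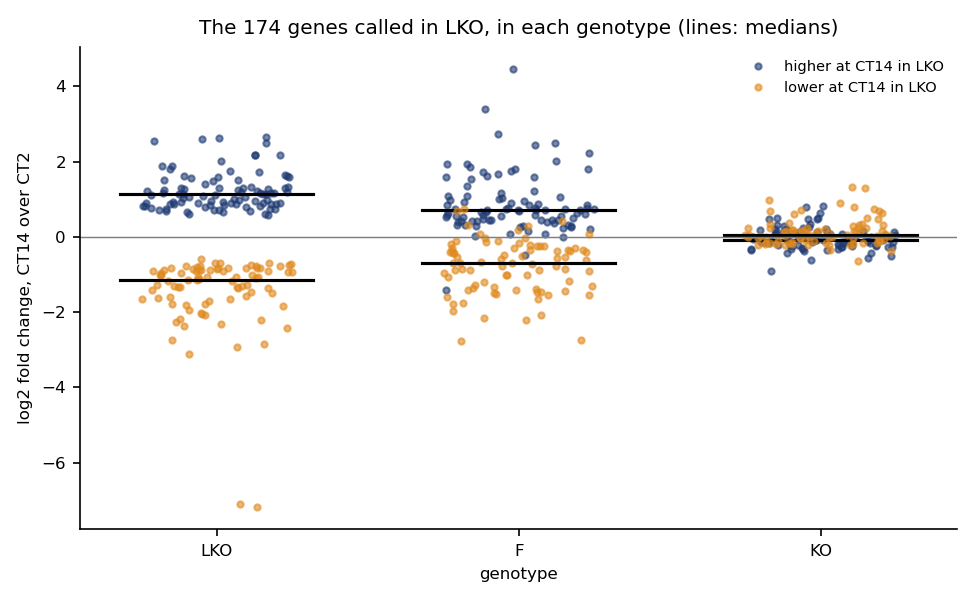
Log2 fold change of CT14 over CT2 (vertical axis) in LKO, F and KO liver for the 174 genes called in LKO, in dark blue where higher at CT14 in LKO and in orange where lower; lines mark the medians (1.13 and -1.14 in LKO, 0.71 and -0.69 in F, -0.07 and 0.05 in KO). The 2 points near -7 are genes with 0 counts in all LKO CT14 libraries and at most 0.247 CPM at CT2, whose plotted value depends on the prior count.

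Against KO the time effect of LKO was called for 7 genes (0.0341%), 1 with a higher value in LKO (0.00487%), Usp2, and 6 with a lower one (0.0292%). In each of these 6 the LKO value was negative and the KO value positive. Mafk, a small MAF transcription factor, had 12.3, 11.3 and 12.02 CPM in LKO at CT14 and 19.2, 24.3 and 21.0 CPM at CT2, while KO livers had 21.7, 13.3 and 26.2 CPM at CT14 and 11.1, 12.7 and 14.1 CPM at CT2 (difference -1.55 ± 0.26, adjusted p = 0.032). Sgms2, a sphingomyelin synthase, had 19.7, 16.9 and 15.1 CPM in LKO at CT14 and 34.3, 39.97 and 33.9 CPM at CT2, while KO livers had 42.1, 23.7 and 40.8 CPM at CT14 and 17.7, 25.6 and 21.95 CPM at CT2 (difference -1.77 ± 0.30, adjusted p = 0.032). In both genes the LKO groups were separate, as for every gene called in LKO. KO CT14 replicate 2 lay below the other KO CT14 libraries. The others were Irs2 (-3.23), Chac1 (-3.84), the predicted gene Gm7694 (-3.35) and the growth-arrest-specific gene Gas7 (-2.61), the last named after its values were seen. None of the 7 held in all 12 fits that left out an LKO or KO library, where the count was 0 without LKO CT14 replicate 1, 2 or 3, LKO CT2 replicate 1 or 2 or KO CT2 replicate 1 or 3, 1, 26 and 1 without KO CT14 replicate 1, 2 and 3, 2 without KO CT2 replicate 2 and 7 without LKO CT2 replicate 3.

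Promoter sequences were available for 132 of the 174 genes, from RefSeq on build GRCm38.p6, as windows from 250 bases before to 50 bases after the transcript start. Both strands were searched for 4 motifs, the E-box CACGTG, the heat shock element (the triplets TTC, GAA and TTC with any 2 bases between neighbours), the cyclic AMP response element TGACGTCA and the glucocorticoid receptor core ACANNNTGT, and matches to different motifs did not overlap in the windows printed here. The E-box was in 11 of 64 genes higher at CT14 (17.2%), in 6 of 68 lower genes (8.82%) and in 10.7% of the 12842 tested genes with a window. The heat shock element was in 1 of 64 higher and 0 of 68 lower genes (0.561% of all), the cyclic AMP response element in 3 and 4 (3.18% of all), and the glucocorticoid receptor core in 0 and 5 (5.89% of all). These letters mark no bound site, and their absence from a window says nothing of the factor. The windows of 3 called genes are shown because each holds 1 match to a different motif (in capitals, read 5′ to 3′ on the strand of the gene; the Hsph1 window also holds the E-box letters, left in lower case) and belong to the heat shock list (Hsph1, chr5:149636287-149636586, minus strand) or to the 8 genes called in every fit (Fkbp5, chr17:28486100-28486399, minus strand, and Ube2h, chr6:30304490-30304789, minus strand).
Hsph1, heat shock element: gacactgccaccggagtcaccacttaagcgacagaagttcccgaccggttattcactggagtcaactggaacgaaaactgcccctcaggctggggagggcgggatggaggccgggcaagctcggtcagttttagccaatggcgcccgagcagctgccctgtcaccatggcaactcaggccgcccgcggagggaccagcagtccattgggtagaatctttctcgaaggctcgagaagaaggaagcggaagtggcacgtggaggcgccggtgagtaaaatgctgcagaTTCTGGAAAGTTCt
Fkbp5, E-box: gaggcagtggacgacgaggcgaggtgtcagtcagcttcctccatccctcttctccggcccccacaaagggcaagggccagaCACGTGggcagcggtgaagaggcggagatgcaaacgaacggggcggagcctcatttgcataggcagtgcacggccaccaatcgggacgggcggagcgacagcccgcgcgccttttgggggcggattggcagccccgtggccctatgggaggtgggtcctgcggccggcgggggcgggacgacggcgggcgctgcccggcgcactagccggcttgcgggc
Ube2h, cyclic AMP response element: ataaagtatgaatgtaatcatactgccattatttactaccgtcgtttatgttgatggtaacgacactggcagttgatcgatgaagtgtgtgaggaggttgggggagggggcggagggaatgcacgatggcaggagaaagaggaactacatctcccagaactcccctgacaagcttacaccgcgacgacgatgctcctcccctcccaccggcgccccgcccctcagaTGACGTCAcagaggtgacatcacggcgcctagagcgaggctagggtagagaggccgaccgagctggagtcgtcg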

How the data were processed

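Polyadenylated mouse liver RNA was sequenced as 24 libraries from a stranded kit, per the labels. Per the submitters' processing notes, fastp 0.23.2, HISAT2 2.2.1, StringTie 1.3.1 and build GRCm39 were used; the annotation release and strand setting are not stated in any source used here. The authors deposited estimated counts per gene, not normalized, TPM, and a table of log2 fold changes with p-values from their DESeq2 comparison of these groups.

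The estimated counts, rounded, went into edgeR 4.0.16 under R 4.3.3 (filterByExpr with minimum count 10 and total 15, 20514 of 56941 genes; TMM; robust quasi-likelihood fit of 8 group means to 24 libraries, 16 residual degrees of freedom). Every adjusted p without another name comes from this model (Benjamini-Hochberg over all genes). The SE is the absolute log2 fold change divided by the square root of F. Alternatives used DESeq2 1.42.0 and limma 3.58.1. The fit was tested on simulated data.

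The 38 gene lists, 603 distinct genes, and the comparison itself were chosen with earlier results of these data known. The genes named were Bmal1 and the clock genes; the 10 largest changes in each direction among called, separated genes with a symbol and at least 1 CPM at 1 time; up to 4 called members of each list with the smallest adjusted p; and the 5 smallest adjusted p of each difference between genotypes. Some genes that this rule names are not reported here. Genes outside it are values from the lists or from the set that held in all 6 leave-one-out fits. Low estimated counts piled up at multiples of 4, a median 1.31 times as often as neighbouring values. Precision may therefore be overstated for weakly expressed genes, which was not tested. With counts divided by 4, edgeR called 209 genes in LKO and 666 in F, against 174 and 545. Of the genes tested, 642 had no symbol. Totals are estimates, not fragments.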

Additional observations from a re-analysis of the deposited data

Results flagged for a closer look

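The time effect of 8 named genes in LKO liver differed from that in F liver by a test of the difference itself (edgeR, log2 scale, LKO minus F). The clock genes were Npas2 (6.16, adjusted p = 1.88e-07), Per3 (-3.77, 0.000406), Tef (-2.73, 6.08e-06), Wee1 (-3.27, 0.000406) and Dbp (-4.20, 0.0219). Outside the clock these were Acacb (-2.71, 0.00423), Cdkn1a (3.59, 0.00284) and the predicted gene Gm11454 (6.42, 0.00133). Gm11454 had 3.52, 3.92 and 2.28 CPM in LKO at CT14 and 8.29, 8.91 and 10.4 CPM at CT2, while F livers had 0, 0 and 0.00918 CPM at CT14 and 1.02, 0.821 and 1.19 CPM at CT2. The F value of this gene rests on almost no counts at CT14, so the size of its difference depends on the prior count. Its direction depended on the scale: the difference was -0.52 on log2(TPM + 1) and 1.19 on log2(TPM + 0.1), neither called (limma-trend).

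The time effect of 6 named genes differed between LKO and KO in the same kind of test (LKO minus KO). Usp2 had a higher value in LKO (2.75, adjusted p = 0.0415). Gm7694 (-3.35), Irs2 (-3.23), Mafk (-1.55), Sgms2 (-1.77) and Chac1 (-3.84) had lower ones (adjusted p = 0.032 each). Each of these calls was lost in 10 or 11 of the 12 fits that left out an LKO or KO library, and none was made with the replicate number as a block. The KO contrast itself called 0 genes, with 753 at an unadjusted p under 0.05 and 37 by DESeq2.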

How the results depend on the processing

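The number of genes called between CT14 and CT2 in LKO liver was 174 and depended on the model. It was 87 without the filter on low counts, 21 with the replicate number as a block and 46 when only LKO libraries were fitted. With DESeq2 it was 662, without the 3 libraries low in Ddx3y (chosen after seeing the data) 288, and with 1 LKO library left out 10 to 59. The genes also changed: 87 of the 87, 19 of the 21, 28 of the 46, 172 of the 662 and 111 of the 288 were among the 174. Without LKO CT2 replicate 3, 42 of the 59 were. For F (545) the counts were 265 with the block, 33 with F alone, 1172 with DESeq2, 207 without both libraries that carried pancreatic transcripts (chosen after seeing the data) and 240 to 578 with 1 library left out. For KO (0) they were 37 with DESeq2, 1 on log2(TPM + 1) and 12 on the same scale with no filter (limma-trend), and 0 to 8 with 1 library left out. For LKO minus F (23) they were 13 with the block, 11 with those genotypes alone, 130 with DESeq2, 85 without the 3 libraries low in Ddx3y and 12 to 57 with 1 library left out. For LKO minus KO (7) they were 11 with counts divided by 4, 0 with the block, 1 with those genotypes alone, 212 with DESeq2, 3, 0 and 11 on log2(TPM + 1), log2(TPM + 0.1) and log2(TPM + 1) with no filter, and 0 to 26 with 1 library left out. The cause of these shifts was not tested; leaving out libraries and fitting fewer of them leaves fewer residual degrees of freedom. The split of LKO calls was 106 higher to 47 lower, 86 to 39 and 92 to 42 on the 3 TPM scales.

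Replicate numbers did not pair the LKO libraries: same-numbered libraries had correlations of their deviations from the group means of -0.08, 0.02 and 0.002 across genes. The LKO minus F difference of Gm11454 reversed, to -0.52, on log2(TPM + 1), with and without the filter. Of the values of named genes under the settings not chosen after seeing the data, 892 kept their side of the threshold, 388 lost the call and 15 gained it. The 892 include values that changed direction where neither fit called the gene. For instance, Npas2 in LKO had -0.15 in the main fit and 0.16 without LKO CT2 replicate 3. The authors' deposited table had 606 calls for the same contrast, 282 higher and 324 lower, of which 152 were shared in direction with the 174; 16 of the 174 had no adjusted p there. Low counts limit weakly expressed genes such as Ciart, Bhlhe41, Gm49024 and Exoc3l4.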
